A study of Mus musculus with 9 samples.

Results

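The genes described here encode the machinery that starts transcription in the nucleus: the subunits of RNA polymerases I, II and III, the Mediator complex, the TBP-associated factors (TAFs) and the general transcription factors of the GTF2 and GTF3 families. They were chosen by symbol, as those beginning with Polr1 to Polr3, Med, Taf, Gtf2 or Gtf3 followed by the numbering of these families. The symbol rule uses no measured value, but it was set with earlier results of these data known. The rule found 105 genes among the 16509 of the series. They comprised 5 genes with Pol I symbols, 13 with Pol II symbols, 10 with Pol III symbols, 30 Mediator genes, 24 TAF genes, 16 GTF2 genes and 7 GTF3 genes. Of these, 102 passed the filter on low counts and were tested. The other 3 (Gtf2a1l, Med12l and Taf7l2) had at most 4 counts in any library.

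Messenger RNA was sequenced from MC38, a mouse colon carcinoma cell line, in 9 libraries. The 3 control libraries (Ctrl) came from cells given vehicle, which the sample labels name as DMSO and the paper as PBS. The 3 Cu-Cys libraries came from cells given copper chloride with cystine, and the 3 Cadict libraries from cells given a nanodrug that combines copper and cystine with glucose oxidase (GOx) and GE11, a peptide that binds EGFR. No dose or time was given for these libraries. The labels do not tie them to separate cultures, while the paper counts n as biological replicates in general terms, and the p-values measure the spread between these libraries.

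Pol I transcribes the large ribosomal RNA precursor, Pol II the messenger RNAs, and Pol III transfer RNAs, 5S RNA and other short RNAs. At a Pol II promoter, TFIID (TBP with its TAFs) and TFIIA, TFIIB, TFIIE, TFIIF and TFIIH assemble with the polymerase, and Mediator relays signals from activators to it. Pol I relies on the selectivity factor SL1, and Pol III on TFIIIA, TFIIIB and TFIIIC.

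Levels are given as CPM, library-size-corrected counts after TMM scaling, which sets the libraries so that the bulk of genes has a log2 fold change near 0. A gene is said to have risen or fallen where edgeR's quasi-likelihood test gave a p of at most 0.05 after Benjamini-Hochberg adjustment over the 11949 genes that passed the filter. A stricter count takes a fold of at least 2 with an adjusted p of at most 0.001. The scaling matters here: with library totals in place of TMM, the median of all genes in Cadict against Ctrl lay lower by 0.95 on the log2 scale (−1.08 against −0.13). In bulk RNA, fewer cells that express a gene and less of its RNA per cell cannot be told apart.

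Library totals ranged from 17905771 to 18293056 counts. In Ctrl libraries 3 counts, the limit for a gene with none, came to 0.130 CPM on average. The 105 genes took 0.558% ± 0.00278 (SD, n = 3) of all counts in Ctrl, 0.584% ± 0.00187 in Cu-Cys and 0.380% ± 0.00533 in Cadict libraries. Replicates differed beyond counting noise, with a chi-square per degree of freedom of 1.90 to 2.07 between Ctrl libraries and 2.71 to 4.66 between Cu-Cys libraries. It was 3.80 between Cadict libraries 1 and 3 and 15.9 and 25.1 between these and the second, which stood apart. Markers of the labelled cell type were checked. Of 6 epithelial markers analysed here, Epcam had no count in any Ctrl library, Krt8, Krt18 and Vil1 had at most 4, Krt19 had at most 33 and Cdh1 at most 120 (4.29 to 5.19 CPM). The summed level of the list was 5.32 to 6.83 CPM in Ctrl, 3.97 to 4.38 in Cu-Cys and 24.0 to 26.1 in Cadict, nearly all of it from Cdh1 and Krt19. Leukocyte markers (4 analysed) summed to 3.05 to 3.29, 2.33 to 2.77 and 15.6 to 18.2 CPM in the same order, nearly all from Cd68 (at least 15.4 CPM in every Cadict library), with at most 4 counts of Ptprc in any library. Fibroblast and endothelial markers (6 analysed) summed to 693 to 727, 402 to 408 and 177 to 193 CPM, mostly from Col1a2. Their part in the results was not tested.

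To show promoters of genes that moved far, the 120 bases before the annotated start are given for 3 genes that rose in Cadict libraries (Taf7l, Gtf2h1 and Taf15) and 3 that fell (Polr1b, Gtf3c3 and Gtf3c1). These had the largest changes among genes with 1 promoter window in the reference table, so Med10 and Taf6, with more than 1, are not shown. The size of the change in Taf7l is uncertain, with 0 counts in every Ctrl library and 12, 17 and 12 in Cadict. Taf7l passed the count filter only through its Cadict libraries. They come from RefSeq on GRCm38.p6 and are written 5′ to 3′ on the strand of the gene. Capitals mark matches, on either strand, to a GC box (GGGCGG), to a CCAAT box (its letters are in the name) or to a metal response element. The latter was searched as TGCACNC and, in a second form of the same element, as TGCGCNC.
Taf7l, chrX:134476491-134476610, minus strand: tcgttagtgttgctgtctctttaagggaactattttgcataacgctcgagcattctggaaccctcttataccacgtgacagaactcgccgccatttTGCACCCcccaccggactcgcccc
Gtf2h1, chr7:46795974-46796093, plus strand: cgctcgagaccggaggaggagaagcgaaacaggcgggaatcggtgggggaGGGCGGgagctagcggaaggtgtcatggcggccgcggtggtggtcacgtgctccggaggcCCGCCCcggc
Taf15, chr11:83472988-83473107, plus strand: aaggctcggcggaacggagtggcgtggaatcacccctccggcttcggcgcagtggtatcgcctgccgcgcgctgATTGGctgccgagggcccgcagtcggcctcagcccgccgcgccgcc
Polr1b, chr2:129100876-129100995, plus strand: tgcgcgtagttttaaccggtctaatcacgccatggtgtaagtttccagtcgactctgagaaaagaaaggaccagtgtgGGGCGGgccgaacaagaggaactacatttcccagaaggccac
Gtf3c3, chr1:54439027-54439146, minus strand: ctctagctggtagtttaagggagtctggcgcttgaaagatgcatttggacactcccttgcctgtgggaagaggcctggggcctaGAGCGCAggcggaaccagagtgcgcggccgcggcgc
Gtf3c1, chr7:125707689-125707808, minus strand: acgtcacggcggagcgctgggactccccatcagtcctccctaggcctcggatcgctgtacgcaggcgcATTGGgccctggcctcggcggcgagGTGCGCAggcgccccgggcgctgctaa

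RefSeq promoter windows of 300 bases (250 before to 50 after the start) were matched for 91 of the 105 genes, in 107 windows, and compared with all 32851 windows of the table. An ETS site (CCGGAAG), the motif of the ETS family of factors, stood in 33.6% of the windows of these genes and in 8.86% of all windows. A GC box stood in 61.7% against 35.7%, an NRF1 motif (GCATGCGC) in 11.2% against 2.71% and a YY1 site (AAGATGGCG) in 6.54% against 1.40%. A metal response element stood in 43.0% against 25.7% and a heat shock element (GAANNTTC) in 10.3% against 7.86%. The TATA box (TATAAA) was at 12.2% against 13.6%, the CCAAT box at 31.8% against 37.4% and the ATF4 site (TGATGNAAT) at 0 of 107 against 0.965%. Among genes past the stricter threshold in Cadict libraries, a GC box stood in 11 of 21 windows of those that rose and in 14 of 17 of those that fell. A metal response element stood in 11 of 21 and 6 of 17. Taf7l, with few counts, was among those that rose. The background of all windows was not matched for expression or base composition, so a higher share does not mark a trait particular to these genes. A match describes letters in a window and is not evidence of binding.

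In Cadict libraries the machinery split. Of the 102 genes tested, 46 rose and 39 fell against Ctrl, where 40.6% of all genes tested rose and 47.1% fell. At the stricter threshold 18 rose and 19 fell, against 20.7% and 27.1% of all genes. These shares lay near those of all genes, so the number of genes that moved does not set the group apart. The counts of single complexes below rest on few genes and are to be set beside the same shares of all genes. With library totals 18 rose and 78 fell. Of the 46 rises, 27 turned to a lower level, whereas all 39 falls stayed lower. Some of the 78 were genes without a call under TMM scaling. Without the second Cadict library 44 rose and 39 fell, and no named gene that passed the test changed direction. Taf1 and Med12, which did not pass it (−0.01 and −0.13), were at 0.08 and 0.0083 without that library. The median log2 fold change was 0.08 for these genes and −0.13 for all genes. The largest rises were in Med10, Gtf2h1 and Taf15 and the largest falls in Taf6, Polr1b, Gtf3c3 and Gtf3c1, leaving aside Taf7l and Taf9b, which had few counts.

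**Figure D1:**
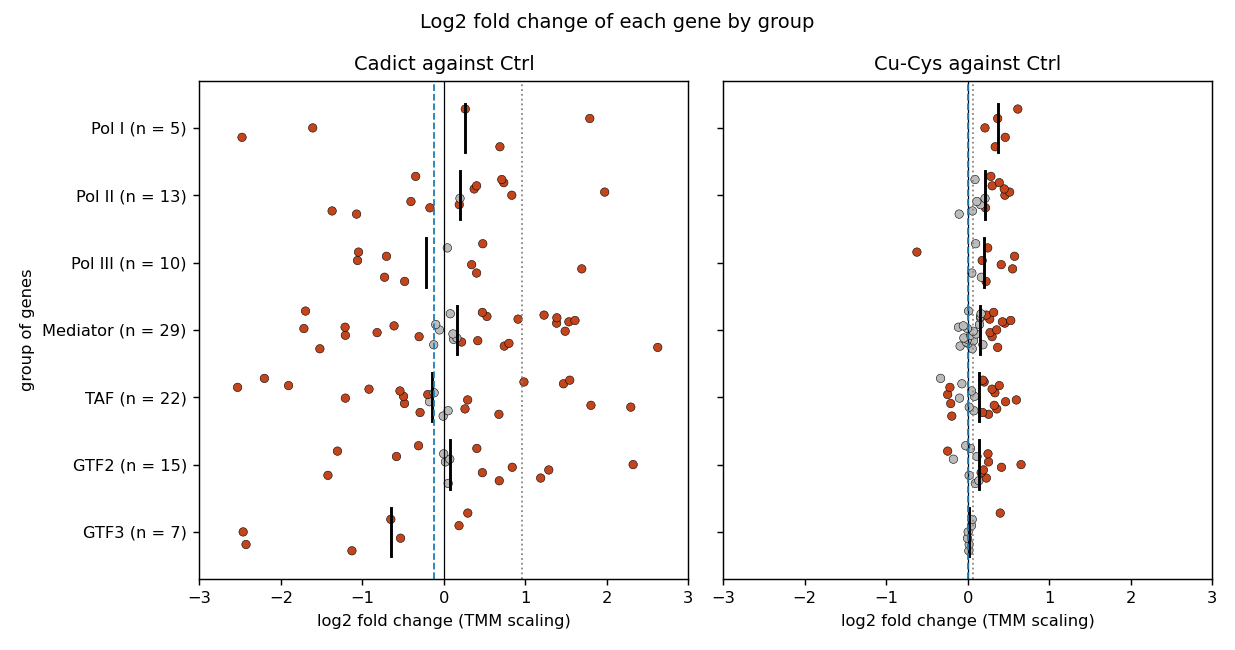
Log2 fold change with TMM scaling (x axis) of 101 genes by group (y axis), in Cadict against Ctrl (left) and Cu-Cys against Ctrl (right), with Taf7l left out because it had no count in Ctrl. Red points had an adjusted p of at most 0.05, black bars are group medians, the dashed line is the median of all genes and the dotted line marks where 0 lies with library totals. Every group but GTF3 held genes with rises and falls of over 0.5 in Cadict libraries, whereas the points for Cu-Cys lay between −0.62 and 0.65.

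Cu-Cys libraries showed a different balance with small changes. There 48 of the 102 genes rose and 6 fell, where 22.6% and 22.4% of all genes did. Counts of single complexes in Cu-Cys libraries below are to be set beside these shares of all genes. No gene passed the stricter threshold in either direction (0.167% of all genes rose past it and 1.47% fell). The median was 0.16, against 0.01 for all genes. With library totals 33 rose and 7 fell, and in limma on TPM 17 rose and 8 fell. The number that fell was 3 when the second Ctrl or the first Cu-Cys library was left out. The comparisons of Cadict and of Cu-Cys with Ctrl share their control libraries, so their values are given side by side and were not correlated.

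Between the treatments, Cadict against Cu-Cys, 39 genes were higher and 48 lower, where 40.3% of all genes were higher and 45.6% lower. At the stricter threshold 15 were higher and 20 lower (18.6% and 23.6% of all genes), and with library totals 14 were higher and 81 lower at the first threshold. Leaving aside Taf7l, which passed the count filter only through Cadict libraries, the largest increases were in Taf15 (2.27) and Med10 (2.26). The largest decreases were in Polr1b (−2.94), Gtf3c3 (−2.47) and Gtf3c1 (−2.45), all on the log2 scale. The direction of Taf15, Med10 and these 3 decreases was the same with library totals.

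Pol II. Its catalytic core is made by Polr2a and Polr2b, the largest subunits. Polr2a was at 264, 274 and 272 CPM in Ctrl, 227, 260 and 265 in Cu-Cys and 145, 93.8 and 147 in Cadict libraries. All 3 Cadict values lay below the others, with the second replicate lowest. Polr2a fell by 1.07 on the log2 scale (SE 0.12, adjusted p = 4.0e-07) in Cadict libraries and did not pass the test in Cu-Cys (−0.11, adjusted p = 0.48). Without the second Cadict library Polr2a fell by 0.89. Polr2b was at 155 to 161 CPM in Ctrl, 160 to 169 in Cu-Cys and 57.0 to 63.8 in Cadict libraries, and fell by 1.37 (SE 0.05, adjusted p = 1.4e-12).

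The smaller subunits moved in both directions. Polr2h, a subunit shared by all 3 polymerases, was at 30.3, 30.6 and 28.3 CPM in Ctrl, 42.3, 43.8 and 41.4 in Cu-Cys and 112, 135 and 103 in Cadict libraries. The groups did not overlap and lay in the order Ctrl, Cu-Cys, Cadict. Polr2h rose by 1.97 (SE 0.08, adjusted p = 2.9e-12) in Cadict and by 0.51 (adjusted p = 0.00020) in Cu-Cys libraries. Polr2g, which forms the stalk of Pol II with Polr2d, rose by 0.83 in Cadict libraries with TMM scaling (adjusted p = 1.2e-07) but was at −0.12 with library totals. In all, 7 of the 13 genes rose and 5 fell in Cadict libraries, and in Cu-Cys 7 rose and 0 fell. Besides the core pair, Polr2c, Polr2e and Polr2m fell by 0.17, 0.40 and 0.35 in Cadict. With library totals 1 of the 13, Polr2h, rose in Cadict libraries and 10 fell.

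The TPM scale divides by transcript length and so allows genes to be compared. On it the subunits of Pol II summed to 1246 ± 19.6 (SD, n = 3) in Ctrl, 1341 ± 46.0 in Cu-Cys and 704 ± 36.8 in Cadict libraries. The median TPM of all genes tested was 21.9, 19.7 and 7.03 in the same order. The lower sum in Cadict is thus a smaller part of all TPM, but not a fall beyond that of the median. Within the Pol II sum the share of Polr2h went from 11.2% in Ctrl to 30.5% in Cadict. That of Polr2a went from 7.20% to 2.53% and that of Polr2b from 7.76% to 2.18%. A share within a library does not depend on the scaling between libraries.

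Pol I. Polr1a and Polr1b, the largest subunits of this polymerase, moved apart. Polr1b was at 79.6, 80.9 and 75.8 CPM in Ctrl, 114, 106 and 105 in Cu-Cys and 16.5, 13.8 and 12.2 in Cadict libraries. The Cu-Cys values were the highest and the Cadict values the lowest, with no overlap. Polr1b fell by 2.48 (SE 0.08, adjusted p = 2.7e-13) in Cadict and rose by 0.46 (adjusted p = 5.8e-05) in Cu-Cys libraries. Polr1a was at 147, 151 and 146 CPM in Ctrl, 194, 182 and 186 in Cu-Cys and 241, 216 and 258 in Cadict, a rise of 0.69 (SE 0.06, adjusted p = 2.4e-08) that became −0.27 with library totals.

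Polr1c and Polr1d form a pair that Pol I shares with Pol III. Polr1c was at 46.9 ± 0.82 CPM (SD, n = 3) in Ctrl, 54.3 ± 1.4 in Cu-Cys and 15.4 ± 1.4 in Cadict libraries, and fell by 1.61 (SE 0.07, adjusted p = 4.9e-12). Polr1d was at 61.1, 66.6 and 65.7 CPM in Ctrl, 80.4, 85.5 and 83.5 in Cu-Cys and 209, 263 and 197 in Cadict, and rose by 1.79 (SE 0.09, adjusted p = 1.5e-11), also with library totals (0.83). Of the 50-base stretches in the transcripts of Polr1d, 10.8% also occurred in another gene, so its count carries some uncertainty.

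The Pol I subunits listed under older symbols fell outside the rule and are given for completeness. Znrd1 (now Polr1h) rose by 1.71 (adjusted p = 1.5e-09), whereas Twistnb (now Polr1f) fell by 0.38 and Cd3eap (now Polr1g) by 0.31. In Cu-Cys libraries all 5 genes with Pol I symbols rose. The largest of these rises was in Polr1e, at 19.4 to 22.1 CPM in Ctrl and 31.5 to 31.8 in Cu-Cys (0.61, SE 0.08, adjusted p = 2.0e-05), and 4 of the 5 rose with library totals.

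Pol III. Of its 10 genes, 4 rose and 5 fell in Cadict libraries (1 and 9 with library totals), and in Cu-Cys 6 rose and 1 fell. Polr3d was at 23.6, 25.1 and 21.5 CPM in Ctrl, 32.8, 34.4 and 35.5 in Cu-Cys and 74.2, 75.1 and 77.3 in Cadict libraries. The groups did not overlap. The rise was 1.69 (SE 0.06, adjusted p = 1.0e-12) in Cadict and 0.55 (adjusted p = 1.2e-05) in Cu-Cys. Polr3k, a small subunit, rose by 0.48 in Cadict libraries but was at −0.48 with library totals.

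Polr3a, the largest subunit, was at 36.6 to 38.3 CPM in Ctrl, 42.1 to 44.9 in Cu-Cys and 24.3 to 29.6 in Cadict, and fell by 0.48 (SE 0.07, adjusted p = 1.1e-05). Polr3f was at 37.7 to 40.2 CPM in Ctrl and 17.2 to 19.5 in Cadict and fell by 1.06 (SE 0.07). Both fell with either scaling.

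Polr3g and Polr3gl are alternative forms of 1 subunit. Polr3gl was at 14.4 ± 0.60 CPM (SD, n = 3) in Ctrl, 9.32 ± 0.70 in Cu-Cys and 6.95 ± 0.79 in Cadict libraries. It fell by 1.05 (adjusted p = 1.1e-07) in Cadict and by 0.62 (adjusted p = 5.1e-05) in Cu-Cys, where it was the largest fall of the 102 genes. Polr3g was at 14.4 ± 1.0 CPM (SD, n = 3) in Ctrl, 21.5 ± 2.5 in Cu-Cys and 8.86 ± 1.4 in Cadict, so that it rose by 0.57 (adjusted p = 0.00029) in Cu-Cys and fell by 0.70 (adjusted p = 7.4e-05) in Cadict libraries. In Cu-Cys the pair thus moved in opposite directions, with either scaling.

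**Figure D2:**
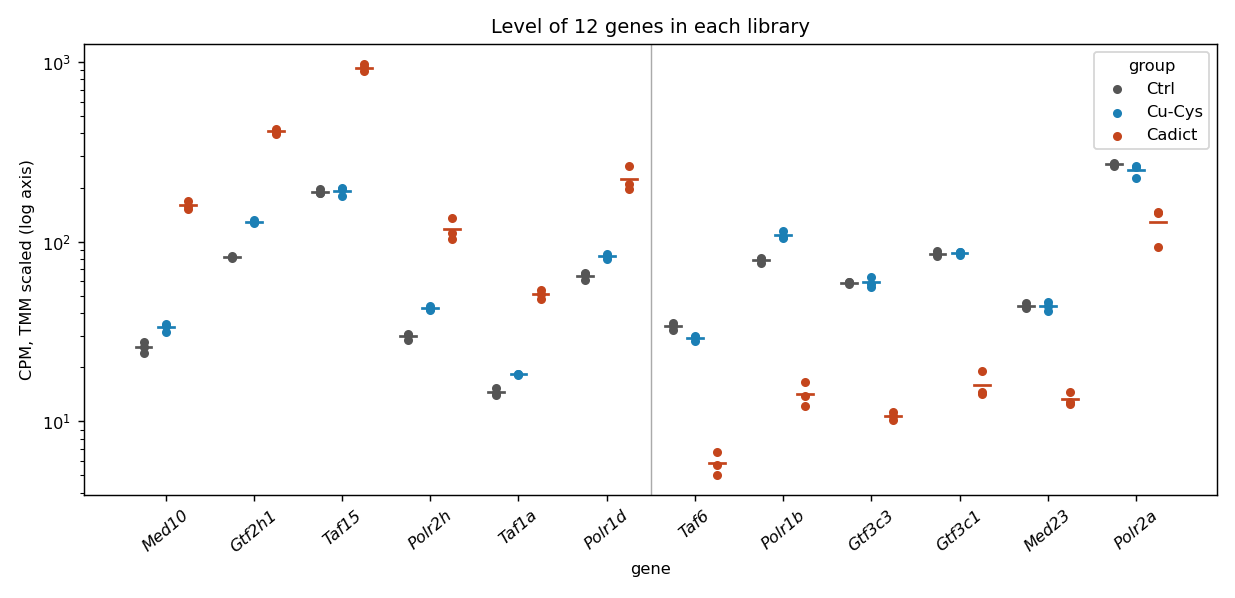
Level in CPM with TMM scaling (y axis, log scale) of 12 genes (x axis) in each of the 3 Ctrl (grey), 3 Cu-Cys (blue) and 3 Cadict (red) libraries, with bars at the group means. The 6 genes on the left are higher in every Cadict library than in any Ctrl library, such as Taf15 at 887 to 968 against 187 to 196 CPM, and the 6 on the right are lower, such as Taf6 at 5.05 to 6.71 against 32.2 to 35.1 CPM.

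Mediator. Of 29 genes tested, 14 rose and 8 fell in Cadict libraries (7 and 20 with library totals), 7 and 5 of them at the stricter threshold. Med10, a subunit of the middle module, had the largest rise, with 25.9, 24.0 and 27.7 CPM in Ctrl, 31.3, 33.9 and 34.9 in Cu-Cys and 159, 168 and 152 in Cadict libraries. The Cadict values stood clear of both other groups. The rise was 2.62 (SE 0.07, adjusted p = 9.3e-15), and 1.67 with library totals. On the TPM scale Med10 went from 9.46% of the Mediator sum in Ctrl to 29.5% in Cadict.

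By module, the head had 5 rises and 3 falls among 9 genes, the middle 4 and 2 among 9, the tail 2 and 3 among 7, and the kinase module 2 and 0 among 3 tested. In the head, Med28 rose by 1.53 and Med6 by 1.23, and Med18 fell by 1.21. In the middle, Med21 rose by 1.49 and Med31 by 1.39 beside Med10, while Med9 fell by 1.70 and Med1, the subunit that nuclear receptors contact, by 1.52. In the tail, Med29 rose by 1.61 and Med27 by 1.38, and Med23 fell by 1.72 and Med24 by 1.21. All these rises and falls kept their direction with library totals, although in limma on TPM Med6 was at −0.09 and the calls for Med21, Med31 and Med27 were lost.

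Med1 was at 79.0, 80.3 and 79.7 CPM in Ctrl, 84.3, 84.7 and 79.4 in Cu-Cys and 28.2, 27.6 and 27.4 in Cadict libraries. Med23 was at 42.7 to 45.3 CPM in Ctrl, 40.9 to 46.2 in Cu-Cys and 12.5 to 14.6 in Cadict. For both genes Ctrl and Cu-Cys overlapped and Cadict lay below.

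Med14, the scaffold that joins the modules, rose by 0.42 (SE 0.09, adjusted p = 0.00043) with TMM scaling but was at −0.54 with library totals. In the kinase module, which reversibly docks on Mediator, Med12 was at −0.13 (SE 0.09, adjusted p = 0.20). The paralogs Med13 and Med13l rose by 0.80 and 0.22 with TMM scaling, and were at −0.15 and −0.74 with library totals. In Cu-Cys libraries 10 Mediator genes rose and 0 fell, 7 of the 10 in the head module.

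TAFs. Of 23 genes tested, 9 rose and 10 fell in Cadict libraries (5 and 17 with library totals). Taf6, a histone-fold subunit of TFIID, fell furthest among genes with more than a few counts. It was at 34.0, 35.1 and 32.2 CPM in Ctrl, 27.9, 29.4 and 29.7 in Cu-Cys and 6.71, 5.05 and 5.71 in Cadict libraries, and the groups did not overlap. Taf6 fell by 2.53 (SE 0.09, adjusted p = 7.5e-13) in Cadict and by 0.22 (adjusted p = 0.015) in Cu-Cys. Its paralog Taf6l, which serves the coactivator SAGA, fell by 1.91 in Cadict (adjusted p = 2.1e-10) and rose by 0.39 in Cu-Cys (adjusted p = 0.0012).

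Taf9, the histone-fold partner of Taf6, was at 65.8, 64.1 and 68.1 CPM in Ctrl, 70.1, 80.5 and 74.5 in Cu-Cys and 187, 201 and 189 in Cadict, a rise of 1.54 (SE 0.06, adjusted p = 8.0e-13). Its value is uncertain, since 68.7% of the 50-base stretches in its transcripts also occurred in another gene, mainly Ak6, which overlaps it. Taf9b, its paralog, had 22, 15 and 19 counts in Ctrl, 11, 16 and 15 in Cu-Cys and 3, 3 and 0 in Cadict libraries, and fell (adjusted p = 0.0012).

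Taf1, the largest subunit of TFIID, was at −0.01 (SE 0.07, adjusted p = 0.90) in Cadict and fell by 0.20 (adjusted p = 0.034) in Cu-Cys. Taf2, which contacts promoter DNA, fell by 1.21 in Cadict. Taf4 fell by 0.25 in Cu-Cys (SE 0.05, adjusted p = 0.0012) and by 0.20 in Cadict (adjusted p = 0.0028), where the call was lost with DESeq2 size factors (−0.08) and in its Wald test (−0.10). Taf4b, its paralog, rose by 0.33 in Cu-Cys (adjusted p = 0.0033) and was at −0.12 in Cadict (adjusted p = 0.22). Taf5 fell by 0.54 and its SAGA-type paralog Taf5l by 0.92 in Cadict, and Taf5l rose by 0.30 in Cu-Cys.

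Taf7 rose by 1.47 (SE 0.11, adjusted p = 4.1e-09) in Cadict libraries from 5.36 to 6.15 CPM in Ctrl to 13.7 to 17.8, a call lost in limma on TPM. Its paralog Taf7l, best known from germ cells and adipocytes, had 0 counts in all 3 Ctrl libraries, 1, 2 and 2 in Cu-Cys and 12, 17 and 12 in Cadict. Taf7l was at least 8.99-fold higher in Cadict than the 3 counts per library that a count of 0 allows in Ctrl, on the TMM scale. Taf7l passed the count filter only through its Cadict libraries, so its test gives no support and its p is left out. It is counted among the rises in both treatments. In Cu-Cys its counts lay under 3, and the call was lost when any Ctrl library or Cu-Cys library 2 or 3 was left out.

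Taf15 encodes an RNA-binding protein of the FET family that also associates with TFIID. It was the most abundant of the 105 genes per length in Cadict libraries (463 TPM, against 225 in Ctrl). Its counts scaled to 196, 187 and 187 CPM in Ctrl, 199, 197 and 180 in Cu-Cys and 887, 968 and 935 in Cadict. Ctrl and Cu-Cys overlapped, and Taf15 rose by 2.29 (SE 0.06, adjusted p = 6.0e-15) in Cadict and was at 0.02 (adjusted p = 0.81) in Cu-Cys. With library totals the rise in Cadict was 1.34.

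SL1, the selectivity factor of Pol I, includes Taf1a to Taf1d. Taf1a was at 14.1 to 15.3 CPM in Ctrl, 18.2 to 18.3 in Cu-Cys and 48.1 to 53.7 in Cadict libraries, and rose by 1.80 (SE 0.07, adjusted p = 6.2e-13) in Cadict, whereas Taf1b fell by 0.48 (adjusted p = 8.6e-05) and Taf1c was at −0.18 (adjusted p = 0.19). The rise of Taf1a held with library totals (0.85).

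General factors of Pol II. Of 15 GTF2 genes tested, 7 rose and 4 fell in Cadict libraries (3 and 11 with library totals), and 7 rose and 1 fell in Cu-Cys. Gtf2h1, which encodes the p62 subunit of the TFIIH core, was at 82.2, 80.9 and 83.3 CPM in Ctrl, 132, 129 and 127 in Cu-Cys and 397, 425 and 409 in Cadict libraries. The groups were separate and tightly spread. Gtf2h1 rose by 2.32 (SE 0.05, adjusted p = 1.3e-15) in Cadict and by 0.65 (SE 0.05, adjusted p = 1.3e-07) in Cu-Cys, and with library totals by 1.37 in Cadict. Of the other core subunits, Gtf2h4 fell by 0.58 in Cadict and Gtf2h2, Gtf2h3 and Gtf2h5 did not pass the test.

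Gtf2b, which encodes TFIIB, was at 31.5, 30.0 and 31.5 CPM in Ctrl, 36.5, 35.3 and 37.0 in Cu-Cys and 70.1, 72.4 and 69.2 in Cadict, and rose by 1.19 (SE 0.06, adjusted p = 9.3e-12), or 0.23 with library totals, but was at −0.13 in limma on TPM. Gtf2f1, the larger TFIIF subunit, rose by 1.29 (SE 0.07), or 0.33 with library totals, but was at −0.03 in limma on TPM. Gtf2e1, of TFIIE, was at 36.2 to 39.6 CPM in Ctrl and 12.9 to 15.4 in Cadict and fell by 1.42 (SE 0.08, adjusted p = 1.0e-10). Gtf2i, which encodes TFII-I, was at 137 to 143 CPM in Ctrl, 112 to 124 in Cu-Cys and 52.6 to 61.2 in Cadict, and fell by 1.31 (adjusted p = 1.2e-11) in Cadict and by 0.25 (adjusted p = 0.0027) in Cu-Cys. Of its relatives, Gtf2ird2 fell by 0.31 in Cadict, and Gtf2ird1 rose by 0.40 with TMM scaling but was at −0.55 with library totals. The call for Gtf2ird2 was lost with DESeq2 size factors (−0.19), in its Wald test (−0.22) and without Ctrl library 2 or Cadict library 1 (−0.28 and −0.23).

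General factors of Pol III. GTF3 genes had the lowest median of the 7 groups in Cadict libraries (−0.65), with 5 of 7 genes lower, 3 of them at the stricter threshold. Gtf3c3, a TFIIIC subunit, was at 59.3, 59.8 and 58.0 CPM in Ctrl, 56.0, 63.8 and 57.9 in Cu-Cys and 10.7, 11.2 and 10.2 in Cadict. Gtf3c1, the largest TFIIIC subunit, was at 85.1, 88.3 and 83.3 CPM in Ctrl, 88.0, 84.7 and 87.2 in Cu-Cys and 14.1, 14.5 and 19.1 in Cadict. For both, Cadict lay far below the other groups, which overlapped.

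The fall was 2.46 (SE 0.08, adjusted p = 9.9e-14) for Gtf3c3 and 2.43 (SE 0.09, adjusted p = 3.5e-13) for Gtf3c1. Gtf3a, which encodes TFIIIA, the factor for 5S RNA genes, fell by 1.13 (adjusted p = 8.7e-10). Gtf3c6 rose by 0.29 (adjusted p = 0.0065) and Gtf3c4 by 0.18 (adjusted p = 0.035) with TMM scaling, but were at −0.66 and −0.77 with library totals. The call for Gtf3c4 was lost when any Ctrl or Cu-Cys library or the third Cadict library was left out (0.07 without the latter). TFIIIC summed to 157 ± 5.26 TPM (SD, n = 3) in Ctrl, 148 ± 2.68 in Cu-Cys and 37.9 ± 4.55 in Cadict. The median TPM of all genes tested also went down, from 21.9 in Ctrl to 7.03 in Cadict. In Cu-Cys libraries 1 GTF3 gene, Gtf3c6, rose (0.40, adjusted p = 0.0010).

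Partner subunits within a complex were compared by the log2 ratio of their CPM in each library, which no scaling between libraries can alter. The 23 pairs were chosen after the values had been seen, from known contacts, and are described without a test. The ratio of Taf9 to Taf6 was 0.95, 0.87 and 1.08 in Ctrl, 1.33, 1.46 and 1.32 in Cu-Cys and 4.80, 5.31 and 5.05 in Cadict libraries. Its mean was thus 17.0-fold higher in Cadict than in Ctrl, with the uncertainty of Taf9 given above. The ratio of Polr1c to Polr1d was −0.40, −0.48 and −0.49 in Ctrl and −3.77, −3.97 and −3.81 in Cadict, 10.5-fold lower. That of Polr1a to Polr1b was 0.88, 0.90 and 0.95 in Ctrl and 3.87, 3.97 and 4.41 in Cadict, 9.01-fold higher.

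Other pairs moved less. The ratio of Gtf2e2 to Gtf2e1, the subunits of TFIIE, was 3.73-fold higher in Cadict than in Ctrl, that of Polr3c to Polr3f 2.76-fold, that of Med21 to Med7 2.64-fold and that of Polr3d to Polr3e 2.56-fold. The mean ratio of Polr2a to Polr2b, the core of Pol II, was 1.21-fold higher in Cadict than in Ctrl. Its log2 values were 0.77 in all 3 Ctrl libraries and 1.21, 0.72 and 1.20 in Cadict, so the groups overlapped. In all, 9 of the 23 ratios differed by over 1 on the log2 scale between Cadict and Ctrl and 0 between Cu-Cys and Ctrl. The median absolute difference was 0.62 in Cadict and 0.16 in Cu-Cys, with a maximum of 0.45 in Cu-Cys. Of all genes tested, 20.7% rose and 27.1% fell past the stricter threshold in Cadict against Ctrl. Ratios of unrelated genes were not computed, so these counts do not set the pairs apart from other genes.

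**Figure D3:**
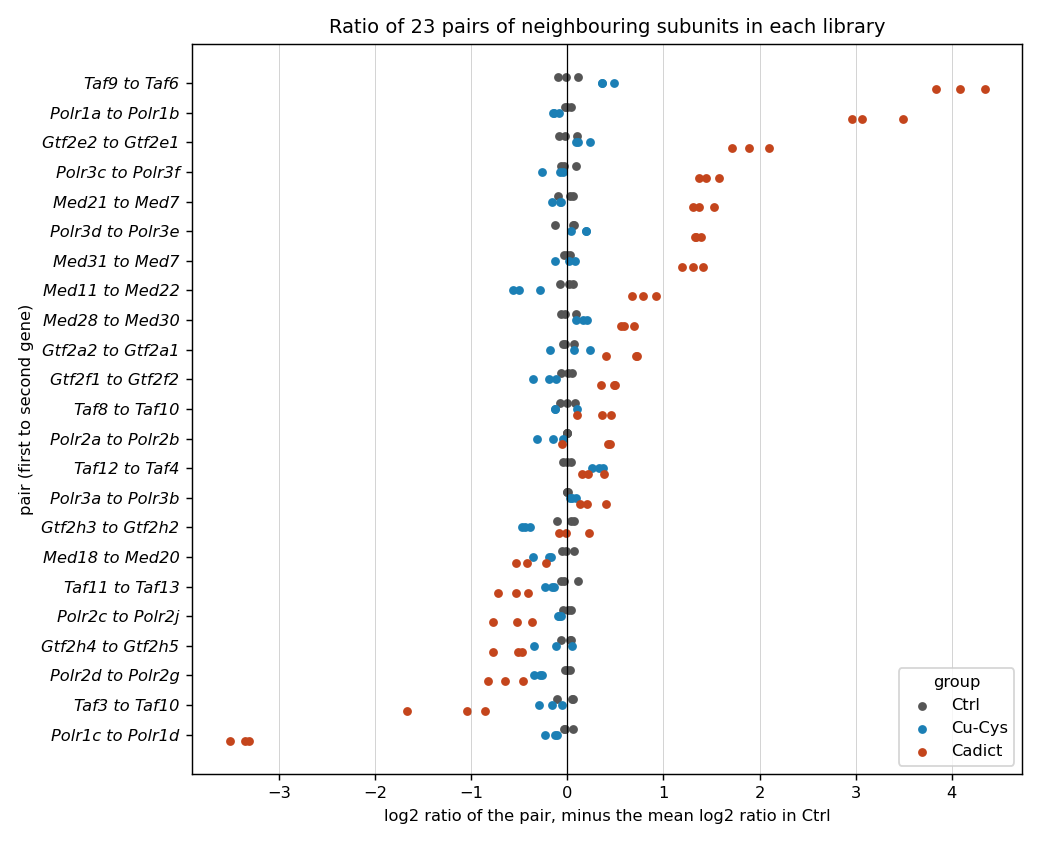
Log2 ratio of the CPM of 23 subunit pairs (y axis) in each library, drawn relative to the mean ratio in Ctrl (x axis), for Ctrl (grey), Cu-Cys (blue) and Cadict (red). The Cadict points spread over a wider range than the Cu-Cys points, from below −3 for Polr1c to Polr1d to above 3 for Taf9 to Taf6, while all Cu-Cys pairs had mean differences of at most 0.45.

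Related factors outside the symbol rule were counted for context, from a list of 65 genes of which 64 were tested. In Cadict libraries 30 rose and 31 fell, with a median of 0.02, where 40.6% of all genes tested rose and 47.1% fell. The list as a whole lay near these shares, and the counts of its parts are to be set beside them. The group of initiation factors for Pol I and Pol III had 3 rises and 8 falls among 11 genes, with a median of −1.15. One of the falls was Maf1 (−1.59), a repressor of Pol III rather than an initiation factor. Snapc2, of the complex SNAPc that serves small nuclear RNA genes, was at 36.9 to 41.0 CPM in Ctrl and 3.66 to 4.03 in Cadict and fell by 3.35 (SE 0.09). Snapc3, of the same complex, rose by 1.22 (SE 0.06).

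Pausing and elongation factors of Pol II had 14 rises and 14 falls among 29 genes tested. Aff1, a scaffold of the super elongation complex, rose by 2.05 and Hexim2, an inhibitor of P-TEFb, fell by 1.93. Phosphatases of the Pol II tail and assembly factors had 7 rises and 6 falls among 13. Ctdp1, a phosphatase of that tail, rose by 1.57, and Rpap1, which assists the assembly of Pol II, fell by 3.37 (SE 0.12), from 46.0 to 47.5 CPM in Ctrl to 3.61 to 5.75 in Cadict. The remaining subunits and partners had 6 rises and 3 falls among 11, with Crcp, a Pol III subunit, at 2.05 and Ercc2, a helicase of TFIIH, at −1.28. The named rises of this list held with library totals, but Snapc3 was at −0.06 and −0.39 in limma on FPKM and TPM. In Cu-Cys libraries 13 of the 64 rose and 6 fell, where 22.6% and 22.4% of all genes did.

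Coding length ran alongside the changes. The longest coding sequence annotated for each gene (GENCODE M21, GRCm38) was set against its log2 fold change. Among the 22 genes with up to 600 coding bases, 18 rose and 1, Med9, fell in Cadict libraries. Among the 29 genes with over 2400 coding bases, 6 rose and 18 fell. None of these 29 rose past the stricter threshold, where 278 of 2545 of all genes tested in this class did. The medians were 0.72 up to 600 bases, 0.08 from 600 to 1200, −0.10 from 1200 to 2400 and −0.50 above.

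All genes tested showed the same order, with 59.9% rising and 26.6% falling up to 600 bases and 28.6% and 60.3% above 2400. Spearman's rho across genes was −0.42 (n = 102) for these genes and −0.22 (n = 11535) for all, and −0.36 and −0.22 in Cu-Cys libraries. Genes share their libraries and are not independent replicates, so the rho is given without a p. With the span of the gene on the genome in place of coding length, rho in Cadict was −0.22 for these genes and −0.04 for all. The part of coding length in the changes of single genes was not tested, and Polr1a and Med13, with over 2400 bases, rose, while Med9 fell.

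**Figure D4:**
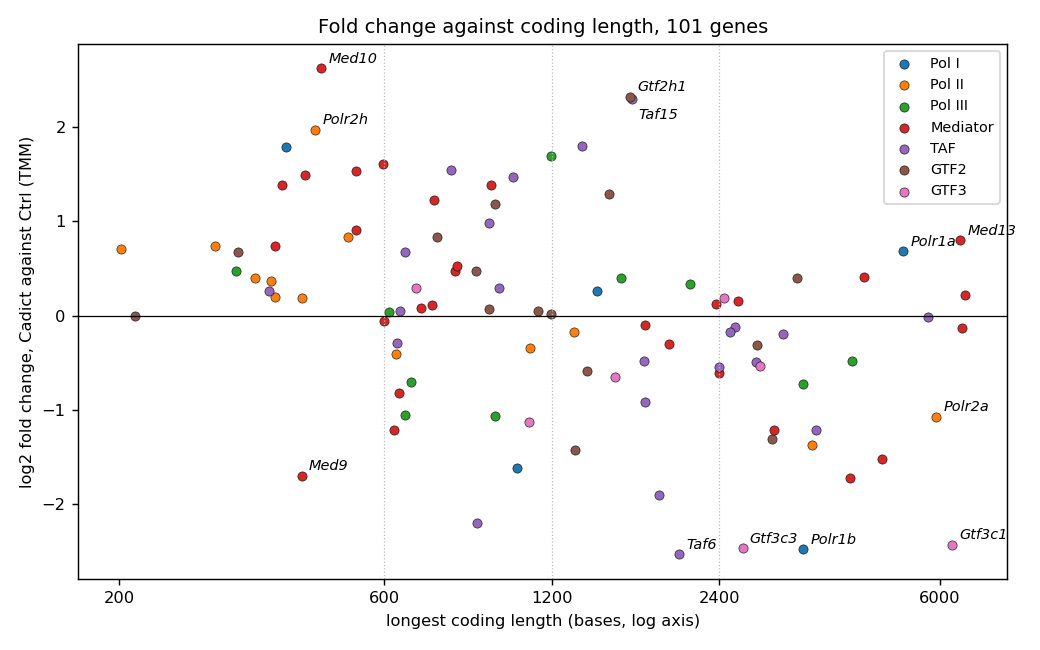
Log2 fold change in Cadict against Ctrl with TMM scaling (y axis) against the longest coding length in bases (x axis, log scale) for 101 genes, colored by group, with Taf7l left out. Dotted lines mark 600, 1200 and 2400 bases. Most points on the left lie above 0 and most on the right below it, with medians of 0.72 and −0.50 in the outer classes.

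The deposited table gives both an expected count and an FPKM, and their ratio returns the length that the authors' quantification assigned to each gene in each library, a mean over its isoforms weighted by their estimated use. A change in this length holds the estimated mix of isoforms and any offset in bases that a library shares across genes. That offset ran from −12.0 to −2.10 bases in Ctrl, −12.8 to 11.6 in Cu-Cys and 4.86 to 10.7 in Cadict libraries. The length was tested with limma for 92 of these genes among the 7599 with at least 100 counts in every library. In Cadict against Ctrl, 12 became shorter and 2 longer at an adjusted p of at most 0.05, where 6.29% of all genes became shorter and 3.51% longer. Only 3 of the 14, Taf8, Med1 and Taf1d, changed by over 10%, a share that was not computed for all genes. In Cu-Cys against Ctrl no gene passed the test in limma among these 92 or among all 7599, and 2 of the 92 had an unadjusted p under 0.05.

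Taf8, a TFIID subunit that pairs with Taf10, had the largest change. Its length was 2951, 3014 and 2920 bases in Ctrl, 2787, 2749 and 2805 in Cu-Cys and 2254, 2317 and 2191 in Cadict libraries. The log2 change in Cadict was −0.39 (SE 0.02, adjusted p = 4.1e-05). Its level meanwhile rose by 0.98 with TMM scaling and was at 0.03 with library totals.

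Med1 was assigned 4288, 4309 and 4198 bases in Ctrl and 3828, 3664 and 3907 in Cadict (−0.17, adjusted p = 0.0038). Taf1d was assigned 1306, 1239 and 1236 bases in Ctrl, 1458, 1383 and 1440 in Cu-Cys and 1145, 1124 and 1118 in Cadict (−0.16, adjusted p = 0.010). Cu-Cys and Cadict thus lay on opposite sides of Ctrl, but the change in Cu-Cys did not pass the test in limma (0.18, adjusted p = 0.29). Med22 went from a mean of 3047 to 2768 bases (−0.14, adjusted p = 0.0023) and Med7 from 1238 to 1131 (−0.13, adjusted p = 0.035). Polr1d, among the 2 that became longer, went from 604 to 633 bases (adjusted p = 0.027). Its log2 change was 0.068, and 0.039 with the offset of each library removed. For Taf8, Med1, Taf1d, Med22, Med7 and Polr1d no Cadict library overlapped a Ctrl library. This adds no support, since these genes were picked from those that passed the test on the same libraries. The share of all genes without overlap was not computed. The number of calls was smaller in other settings, with 5 to 7 shorter and 0 longer when any Ctrl library or Cadict library 2 or 3 was left out. It was also 0 longer without Cadict library 1 and 1 without Cu-Cys library 2.

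**Figure D5:**
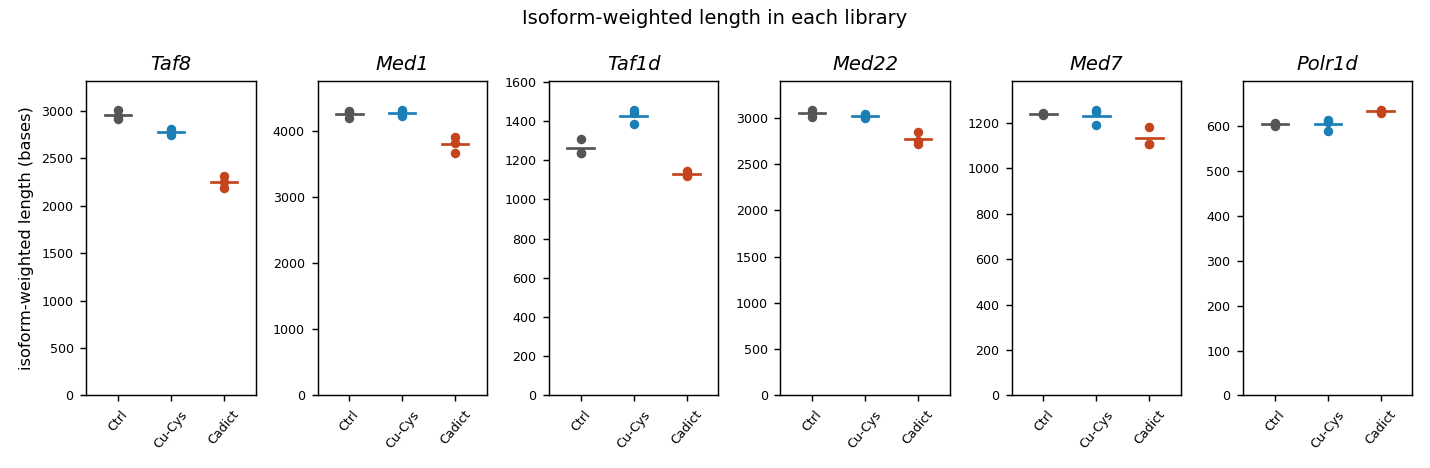
Isoform-weighted length in bases (y axis, from 0) of 6 genes in each Ctrl (grey), Cu-Cys (blue) and Cadict (red) library, with bars at the group means. Taf8 lies at 2191 to 2317 bases in Cadict against 2920 to 3014 in Ctrl, the widest gap of the 6, while Polr1d is the single gene drawn that is longer in Cadict (633 against 604 bases).

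Shared sequence limits some of these values. Of 104 genes matched to GENCODE transcripts, 15 had over 5% of their 50-base stretches in another gene as well. Besides Taf9 the largest shares were in Gtf3c2 (37.2%), Polr2k (21.6%), Polr2l (20.9%, mainly Usp50) and Taf5l (15.4%). Of the genes with the largest changes, Gtf3c3 had 9.39% and Polr2h 8.72%.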

How the data were processed

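The authors deposited 1 table with an expected count, an FPKM, a TPM and a normalized count per gene and library. Tools and builds listed in the submitters' processing notes, with no role given, were HISAT2 2.1.0, Bowtie2 2.3.4.3, RSEM 1.3.1, GRCm39 and GRCh38.p13. Sample labels name a column kit and DNA nanoball sequencing, the paper TRIzol and Illumina Novaseq. Columns marked CC were read as Cu-Cys and CCGE as Cadict, the latter inferred from its components. The 9 normalized-count columns were not used.

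Expected counts were rounded and tested in R 4.3.3 with edgeR 4.0.16 (filterByExpr, TMM, quasi-likelihood F-test, 3 groups in 1 fit), adjusted over 11949 genes. The stricter threshold is the paper's. Isoform-weighted length was the deposited expected count over the deposited FPKM, rescaled, tested on the log2 scale with limma 3.58.1. TPM values were used as deposited by the authors. The scripts were tested on simulated data.

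Members and lists were chosen with earlier results of these data known. Named genes were fixed subunits, the 2 largest rises and falls of each group in Cadict, the 3 largest in the other comparisons, paralog pairs and the extremes of each related list. Genes past the stricter threshold, subunit partners and the older Pol I symbols were added after their values were seen. Alternatives were DESeq2 1.42.0 size factors and Wald test, library totals, other filters, limma on FPKM and TPM with a pseudocount of 1, a replicate block and leaving out each library. No GRCm39 genome or protein table was used here, so coordinates are on GRCm38.p6.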

Additional observations from a re-analysis of the deposited data

How the results depend on the processing

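In Cadict against Ctrl, 46 genes rose and 39 fell with TMM scaling, 18 and 19 of them at least 2-fold with an adjusted p of at most 0.001. These 4 counts became 18, 78, 5 and 44 with library totals, 19, 77, 3 and 37 in limma on FPKM and 11, 83, 3 and 58 in limma on TPM. In Cadict against Cu-Cys they went from 39, 48, 15 and 20 to 14, 81, 3 and 48 with library totals, 15, 81, 2 and 41 in limma on FPKM and 10, 85, 2 and 59 in limma on TPM. In Cu-Cys against Ctrl, 48 rose and 6 fell, but 17 rose in limma on TPM and 3 fell in DESeq2's Wald test. The median of all genes in Cadict against Ctrl moved by −0.95 with library totals and −0.65 in limma on FPKM, and by more than either in limma on TPM.

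Leaving out each library in turn gave 43 to 47 rises and 37 to 40 falls in Cadict against Ctrl (18 to 19 and 18 to 19 at the stricter threshold), 35 to 54 and 3 to 7 in Cu-Cys against Ctrl (0 to 0 for both stricter counts), and 36 to 39 and 45 to 48 in Cadict against Cu-Cys (14 to 17 and 20 to 22). For isoform-weighted length it gave 5 to 12 shorter and 0 to 3 longer genes. The 12 shorter and 2 longer genes became 3 and 1 of 30 with at least 500 counts in every library, where fewer genes were tested, and the longer genes became 4 with the offset of each library removed, an alternative chosen after seeing the data.

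Replicates share numbers across groups, but residual correlations of same-numbered libraries ran from −0.09 to 0.11 over 10405 genes, so the numbers were not taken as pairs. With the replicate number as a block, 45 genes rose and 39 fell in Cadict against Ctrl and 46 and 5 in Cu-Cys against Ctrl, and 5 lengths were shorter and 0 longer.

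Of 76 gene values named, 32 of 1288 alternatives turned the direction of one that passed the test in either setting, 0 of them by leaving out a library. Taf1 and Med12 in Cadict, below the threshold, were at 0.08 and 0.0083 without Cadict library 2, and Taf1 at 0.11 and 0.09 with DESeq2 size factors and in its Wald test. Library totals, limma on FPKM and limma on TPM gave −0.27, −0.19 and −0.53 for Polr1a, −0.54, −0.53 and −0.87 for Med14, −0.12, −0.16 and −0.50 for Polr2g, −0.48, −0.46 and −0.80 for Polr3k, −0.77, −0.68 and −1.03 for Gtf3c4, −0.66, −0.57 and −0.91 for Gtf3c6, −0.15, −0.16 and −0.49 for Med13, −0.74, −0.65 and −0.99 for Med13l and −0.55, −0.47 and −0.81 for Gtf2ird1. FPKM and TPM gave −0.065 and −0.39 for Snapc3, and TPM −0.13 for Gtf2b, −0.030 for Gtf2f1 and −0.088 for Med6. Calls for Taf4 and Gtf2ird2 in Cadict were lost with DESeq2 size factors and in its Wald test. Depth limits Taf7l and Taf9b, with at most 22 counts per library.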
